A study of Mus musculus with 12 samples.

Results

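The 10 genes described here encode subunits of the dimeric transcription factor AP-1 and early growth response factors: Fos, Fosb, Fosl1, Fosl2, Jun, Junb, Jund, Atf3, Egr1 and Egr2. They were found by matching the RefSeq accession of each non-control probe to these mouse symbols. Fosl2 had 2 probes and each other gene had 1, and all 10 genes were among the 25084 features tested, of which 17166 carry a gene symbol. By the array labels, each of the 12 arrays compared 1 RNA sample, labelled with Cy5, with a pool of all conditions labelled with Cy3. The series text instead describes wt RNA in Cy3 and dye swaps, which these labels do not show. The samples were Eng+/- or wt, of day 50 or 90, with clp, with tpa or with no named treatment, and each of these 12 combinations had 1 array. The product of Eng is endoglin, a membrane protein that binds Tgf-β ligands together with their signalling receptors. The labels do not say what clp and tpa stand for, what the days count or how many animals or cultures gave an RNA, and both wt samples with no named treatment have the word pool in their titles. The p-values below therefore measure the spread between arrays of different conditions, since no combination was repeated.

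AP-1 is a dimer of a Jun protein with a Fos or Atf protein, or of a pair of Jun proteins, and binds a short palindrome known as the TRE, after the phorbol ester TPA, or the related CRE. Fos, Fosb, Jun, Junb, Atf3, Egr1 and Egr2 are immediate early genes: growth factors, stress and phorbol esters that act through protein kinase C and MAP kinases raise their transcripts within minutes to hours, without new protein synthesis. In skin, AP-1 subunits are known for roles in keratinocyte proliferation, differentiation and wound healing.

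Each treatment level lay on a slide of its own with its own scan, so treatment and slide cannot be told apart, while both genotypes and both days were on every slide. The material is labelled as E14 embryonic stem cells, but the stem cell factor Pou5f1 was detected above background on 1 of 12 arrays, Zfp42 on 0, and 4 of the 10 stem cell markers on all 12. Of the markers of epidermis, 9 of 9 were above background on all 12 arrays, and of those of hair shaft and inner root sheath, 13 of 14. Eng was lower on the Eng+/- array in 5 of 6 genotype pairs. In the tpa pair of day 50 it was higher by 0.63 on the log2 scale on the array labelled Eng+/-, so directions drawn from that pair rest on labels that Eng does not bear out. Over the 6 pairs the Eng difference was -0.77 ± 0.26 (limma estimate ± SE, adjusted p = 0.331). Over all features the Eng+/- array of day 90 with no named treatment correlated most with the wt tpa array of day 50 (Pearson r = 0.969), and with the other arrays of its own treatment level at 0.681, 0.699 and 0.778. The treatment calls among the 10 genes are given with and without it.

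The values are log2 ratios of sample to pool. A value of 0 is the level of the pool, and a value of 1 is 2-fold above it. Ratios of different genes are not levels per length and show only where each gene stands against its own level in the pool. The genes other than Fosl1 were well above background in Cy5 and in Cy3 on all 12 arrays, and none was saturated. Fosl1 was above background on 11 arrays in Cy5 and on 8 in Cy3.

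Egr1, Jun and Jund varied most among the arrays, with ranges of 2.41, 2.55 and 2.51 on the log2 scale, which are 5.31-fold, 5.85-fold and 5.7-fold. Fos spanned 1.9 (3.74-fold), and the narrowest range was that of Fosb at 0.67 (1.59-fold). The plot of all 10 genes by array shows where each of them was high or low.

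**Figure D1:**
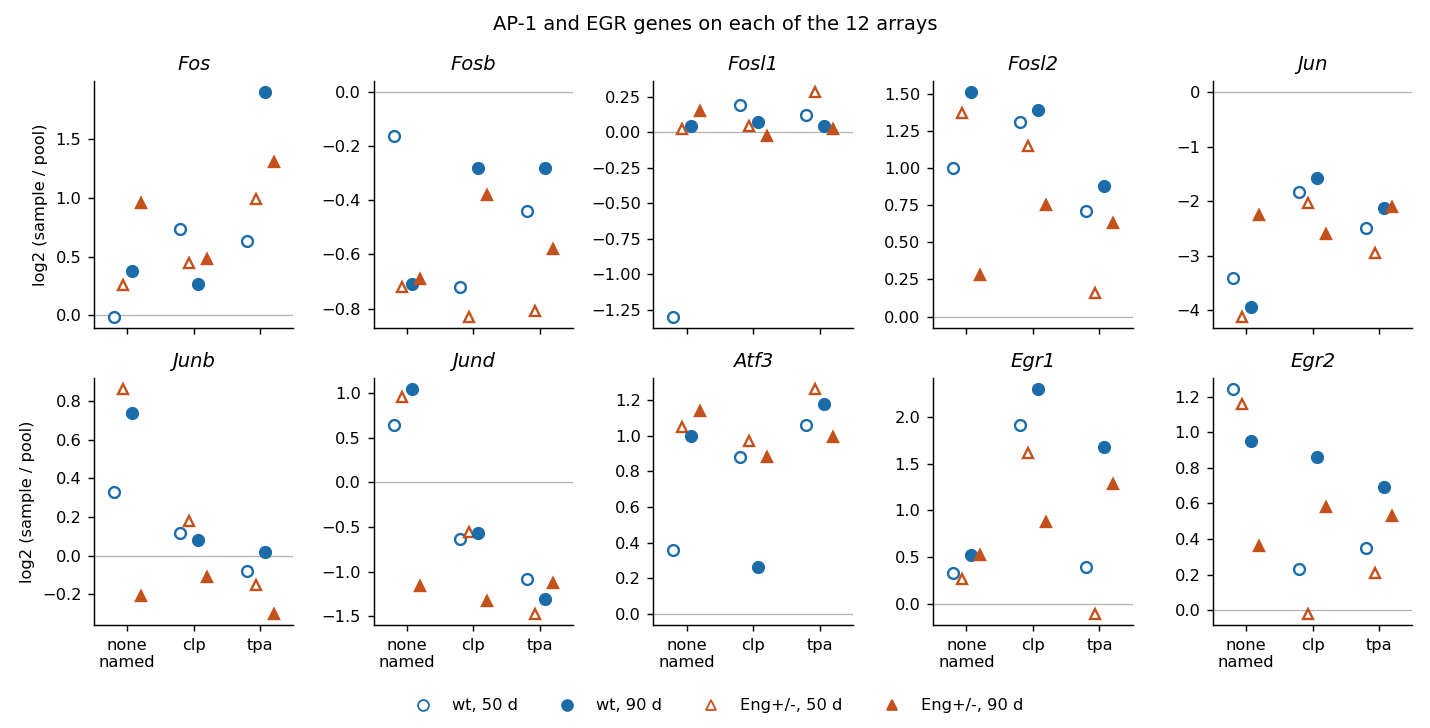
Log2 ratio of sample to pool for each of the 10 genes (vertical axes, each with its own scale) on the 12 arrays, grouped by treatment level, with wt as circles, Eng+/- as triangles, day 50 open and day 90 filled. Egr1 lies between 0.88 and 2.3 on the clp arrays, above all 4 arrays with no named treatment (0.26 to 0.52), and the filled triangle with no named treatment is the lowest of its level for Jund (-1.16) and the highest for Jun (-2.26).

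The sequence upstream of the start was read for the genes with a listed start, and is printed for Fos, Jun and Atf3, picked from those with 1 listed start. The 250 bases before the start came from RefSeq (build GRCm38.p6), where 8 of the 10 genes matched and 7 of them had 1 start. They are printed 5′ to 3′ on the strand of the gene, and capitals mark the motif matches. They lie at chr12:85473640-85473889 (plus strand) for Fos, chr4:95052223-95052472 (minus strand) for Jun and chr1:191183334-191183583 (minus strand) for Atf3.
Fos: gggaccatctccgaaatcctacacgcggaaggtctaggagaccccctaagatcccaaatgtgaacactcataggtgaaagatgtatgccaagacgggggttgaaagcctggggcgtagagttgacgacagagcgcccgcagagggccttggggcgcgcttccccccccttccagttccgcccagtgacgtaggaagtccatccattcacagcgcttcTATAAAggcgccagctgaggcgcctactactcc
Jun: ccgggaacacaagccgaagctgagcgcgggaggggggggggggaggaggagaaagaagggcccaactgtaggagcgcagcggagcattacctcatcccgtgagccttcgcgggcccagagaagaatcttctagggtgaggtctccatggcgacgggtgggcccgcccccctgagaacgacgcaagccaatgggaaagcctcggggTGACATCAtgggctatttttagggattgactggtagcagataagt
Atf3: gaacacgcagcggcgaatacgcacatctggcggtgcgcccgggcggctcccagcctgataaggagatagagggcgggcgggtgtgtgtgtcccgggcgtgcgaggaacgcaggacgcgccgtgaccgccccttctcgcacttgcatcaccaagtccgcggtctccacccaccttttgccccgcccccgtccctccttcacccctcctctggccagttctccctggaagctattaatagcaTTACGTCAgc

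Both strands were searched for TGANTCA (the TRE), TGACNTCA (related to the TRE and the CRE) and TNACGTCA (CRE-related). They were also searched for GCGNGGGCG (the Egr site), TATAAA and the CArG box of serum response factor. The unmodified CRE palindrome would match both TGACNTCA and TNACGTCA. The Jun window held TGACNTCA at -45, counted from the start to the first base of the match, and 7.49% of 32851 windows of this length hold it. Atf3 held TNACGTCA at -10, a spelling found in 2.52% of windows, and Fos held TATAAA at -33, found in 12.4%. Fosb held GCGNGGGCG at -50 and Fosl2 at -79 (4.7% of windows), and Egr2 had a CArG box before 4 of its starts (1.47%). TGANTCA, present in 6.75% of windows, matched before none of the 8 genes. These matches describe letters only.

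With all 12 arrays, Egr1 was higher with clp than with no named treatment, and it was the 1 of the 10 genes that passed the threshold in any comparison. Differences were estimated in 1 limma model with genotype and the 6 combinations of treatment and day, and called at a Benjamini-Hochberg adjusted p under 0.05 over all features. For clp against no named treatment, 1 of 10 genes passed, where 7.77% of all features did. For tpa against no named treatment 0 of 10 passed (background 0.132%, with 6519 features at an unadjusted p under 0.05), and for tpa against clp 0 of 10 (background 8.16%). Both comparisons with no named treatment share those 4 arrays. As for values that did not overlap, all 4 tpa arrays lay above or below all 4 with no named treatment for 0 of 10 genes (4.56% of features above, 6.61% below). The clp arrays lay all above for Egr1 and all below for 0 of 10 genes (3.98% of features), and the tpa arrays lay all above the clp arrays for Atf3 and all below for 0 (8.24%).

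When the Eng+/- array of day 90 with no named treatment was left out, more of the genes passed, and so did more of all features. That array was chosen from these same data, where it was most like a tpa array. Leaving it out could widen the differences from no named treatment through that choice, so the added calls are no separate support. For tpa against no named treatment 6 of 10 then passed, Fos and Jun higher and Jund, Junb, Fosl2 and Egr2 lower, where 19.8% of all features passed. For clp 5 of 10 passed, Egr1 and Jun higher and Jund, Junb and Egr2 lower, where 18% of features passed. For tpa against clp 2 of 10 passed, Fos higher and Egr1 lower, where 11.8% of features passed. Leaving out the wt array of day 50 with no named treatment as well, 6 of 10 passed for tpa (20.5% of features), 5 for clp (20.5%) and 3 for tpa against clp (14.3%). In the fit without the Eng+/- array of day 90 with no named treatment, cell type markers also differed with tpa. Hair shaft and inner root sheath genes were lower in 11 of 14 cases (median -2.71), fibroblast markers in 4 of 9 and epidermis markers in 4 of 9, with 1 higher (Krt1). The mean ratio of the hair list on the tpa arrays was -5.13 (wt) and -4.42 (Eng+/-) at day 50. At day 90 it was 0.05 (wt) and -1.36 (Eng+/-), beside -1.32 to 0.26 on the arrays kept with no named treatment. Their part in the tpa differences was not tested. The plot of treatment differences sets both fits side by side.

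**Figure D2:**
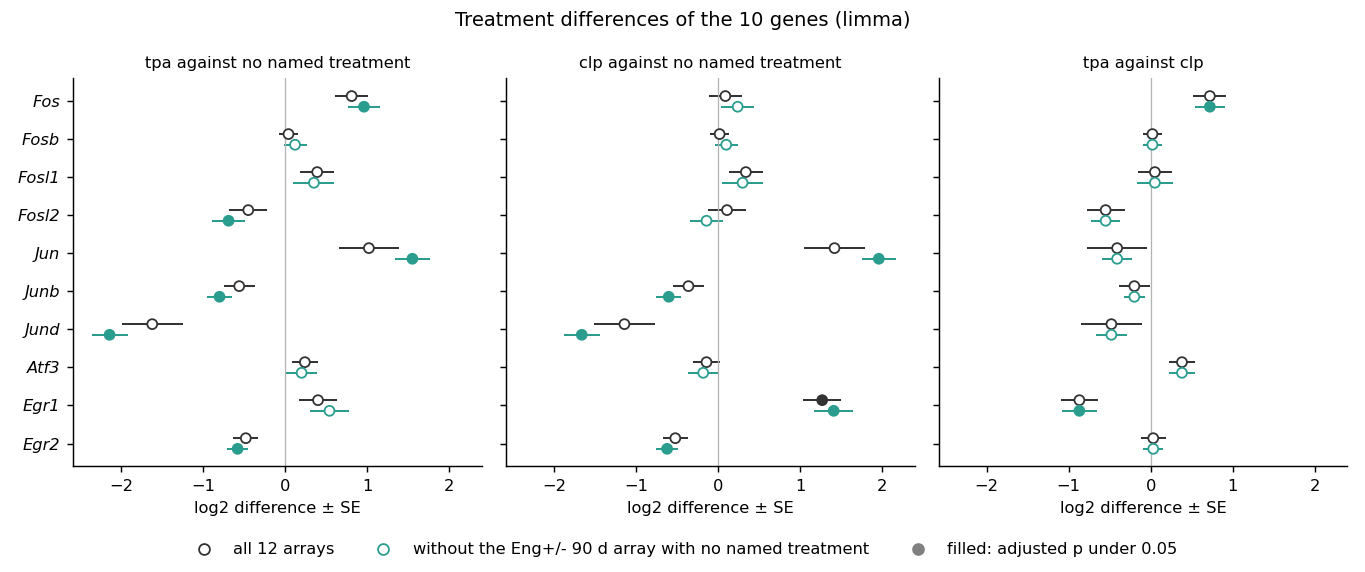
Log2 differences ± SE (horizontal axes) of the 10 genes in the 3 treatment comparisons, from limma on all 12 arrays (dark) and without the Eng+/- array of day 90 with no named treatment (green), filled where the adjusted p was under 0.05. Jund in tpa goes from -1.62 to -2.14 and Jun in clp from 1.42 to 1.96 when that array is left out.

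Fos is the AP-1 subunit best known as an immediate early gene and has a short-lived transcript. With no named treatment, Fos was at -0.01 (wt, day 50), 0.26 (Eng+/-, day 50), 0.38 (wt, day 90) and 0.96 (Eng+/-, day 90). With clp it was at 0.74 (wt, day 50), 0.45 (Eng+/-, day 50), 0.27 (wt, day 90) and 0.48 (Eng+/-, day 90). With tpa it was at 0.63 (wt, day 50), 0.99 (Eng+/-, day 50), 1.9 (wt, day 90) and 1.31 (Eng+/-, day 90). The 2 highest values of the 12 were both tpa arrays of day 90, and the tpa values overlapped those with no named treatment only through the Eng+/- array of day 90.

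The Fos probe was spotted 10 times on each array, and 6 to 10 of these spots were used, which gives the spread within an array. The SD among spots was 0.03 to 0.13. The wt tpa array of day 90 had spots from 1.81 to 2.02, above the spots of every other array, and the next array, Eng+/- tpa of day 90, had spots from 1.24 to 1.4. Below them, the Eng+/- tpa array of day 50 (0.99 ± 0.09, SD among spots) and the Eng+/- array of day 90 with no named treatment (0.96 ± 0.13) did not differ beyond their spread, and neither did both Eng+/- clp arrays (0.48 ± 0.1 and 0.45 ± 0.1). Spots of 1 probe share their RNA and hybridization, so this spread is technical.

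**Figure D3:**
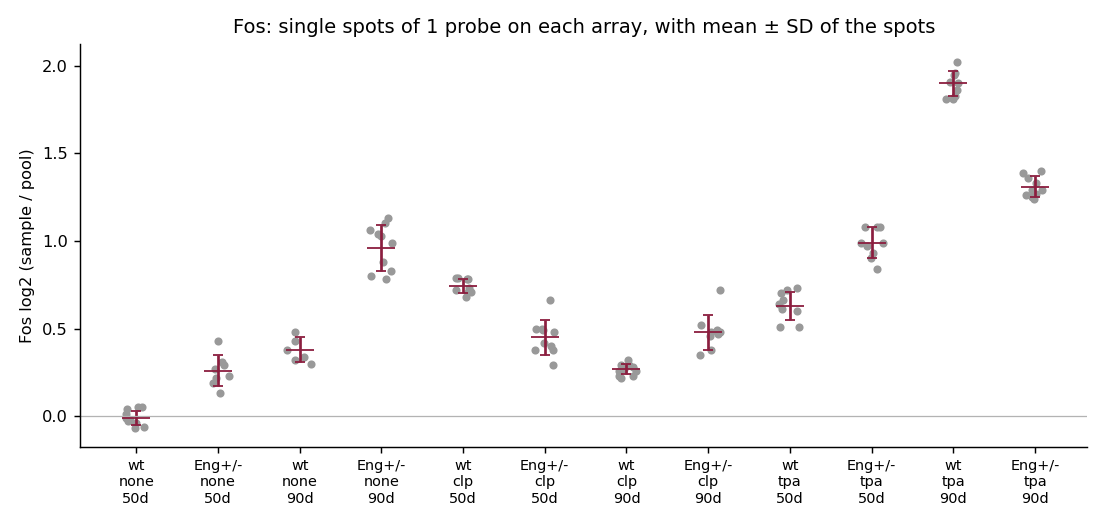
Log2 ratio of sample to pool (vertical axis) for the single Fos spots of each of the 12 arrays, with the mean and SD among spots. The spots of the wt tpa array of day 90 (1.81 to 2.02) lie above all others, and the wt array of day 50 with no named treatment is lowest (-0.07 to 0.05).

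Fos was higher with tpa than with no named treatment in 4 of 4 matched pairs, by 0.81 ± 0.2, with an adjusted p of 0.0801. Against clp it was higher in 3 of 4 pairs, by 0.72 ± 0.2 (adjusted p = 0.0547), and clp differed from no named treatment by 0.09 ± 0.2 (adjusted p = 0.811). Fos passed without the Eng+/- array of day 90 with no named treatment, for tpa at 0.96 ± 0.2 (adjusted p = 0.0167) and for tpa against clp at 0.72 ± 0.18 (adjusted p = 0.0364). Over all the alternative fits the Fos difference for tpa lay between 0.6 and 1.45, with adjusted p from 0.00869 to 0.309. In these bulk samples, fewer cells of a type and less RNA per cell cannot be told apart.

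Fosb, a close relative of Fos, was below the pool on 12 of 12 arrays, between -0.83 (Eng+/- clp, day 50) and -0.16 (wt with no named treatment, day 50). Its treatment differences were 0.02 to 0.04, with SEs of 0.12. For tpa against no named treatment the Fosb difference was larger with the processed signals (0.51, adjusted p = 0.2), with median centring (0.51, adjusted p = 0.163) and with Cy5 alone (0.46, adjusted p = 0.219). With each array centred on its median in place of the loess curve, Fosb was below the pool on 8 arrays.

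Fosl1 and Fosl2 encode the Fos-related antigens Fra-1 and Fra-2, which lack the strong activation domain of Fos. Fosl1 lay between -0.03 and 0.28 on 11 arrays and at -1.3 on the wt array of day 50 with no named treatment. On that array its Cy3 median signal was 315, against 61 to 80 on the others, so the low ratio went with a high pool signal of the spot, and the Cy5 signal of 172 was within the range of the other arrays. Its treatment differences of 0.39 ± 0.21 (tpa) and 0.34 ± 0.21 (clp) rest on that array: without it and the Eng+/- array of day 90 they were 0.08 ± 0.09 and 0.04 ± 0.09.

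The brighter Fosl2 probe was above the pool on 12 of 12 arrays, at 0.28 to 1.51 with no named treatment, 0.75 to 1.39 with clp and 0.16 to 0.88 with tpa. The tpa arrays were lower than their clp partners in 4 of 4 pairs, by -0.55 ± 0.23 (adjusted p = 0.185), and the 2 ranges overlapped. Against no named treatment the tpa difference was -0.45 ± 0.23 (adjusted p = 0.256), and -0.69 ± 0.2 (adjusted p = 0.0444) without the Eng+/- array of day 90. With median centring it was 0.26, below the shift of 0.34 that this setting gave all features. The dimmer Fosl2 probe was below the pool on all 12 arrays, from -1.52 to -0.37, so the 2 probes of the gene disagree on its position against the pool.

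Jun encodes the partner of Fos in the classical AP-1 dimer. With no named treatment, Jun was at -3.41 (wt, day 50), -4.12 (Eng+/-, day 50), -3.94 (wt, day 90) and -2.26 (Eng+/-, day 90). With clp it was at -1.83, -2.04, -1.57 and -2.6, and with tpa at -2.49, -2.95, -2.13 and -2.1, in the same order. All values with clp and with tpa lay above the first 3 values, and the Eng+/- array of day 90 lay among the treated arrays.

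Jun was below the pool on 12 of 12 arrays, also with the authors' processed signals and with median centring, although the labels say that the pool holds all conditions. Its mean of -2.62 was at percentile 1.1 of all features, and 316 features (1.26%) were at or below -1.5 on every array. The pool signal of the Jun probe was high on each array (median Cy3 signal 3800 to 8480). Why samples and pool differ in this way was not tested, and the differences between arrays below set each sample against the same pool.

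Jun was higher with clp in 3 of 4 pairs, by 1.42 ± 0.37 (adjusted p = 0.0511), and with tpa in 4 of 4, by 1.02 ± 0.37 (adjusted p = 0.141). Without the Eng+/- array of day 90 with no named treatment, both passed, at 1.96 ± 0.21 (adjusted p = 0.00195) for clp and 1.55 ± 0.21 (adjusted p = 0.00398) for tpa. For clp the Jun difference also passed with the processed signals (1.6, adjusted p = 0.0317), with median centring (1.96, adjusted p = 0.0243) and with Cy5 alone (1.14, adjusted p = 0.0277). Between tpa and clp Jun differed by -0.41 ± 0.37 (adjusted p = 0.531).

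Jund is the Jun gene that many resting cells express steadily. With no named treatment, Jund was at 0.64 (wt, day 50), 0.96 (Eng+/-, day 50), 1.04 (wt, day 90) and -1.16 (Eng+/-, day 90). With clp it was at -0.63, -0.55, -0.57 and -1.33, and with tpa at -1.08, -1.47, -1.31 and -1.13, in the same order. Jund was thus above the pool on 3 arrays and below it on 9, and the 3 high arrays all had no named treatment. With median centring it was below the pool on 5 arrays.

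Jund differed by -1.62 ± 0.37 with tpa (adjusted p = 0.0769, lower in 3 of 4 pairs) and by -1.14 ± 0.37 with clp (adjusted p = 0.0908, lower in 4 of 4). Without the Eng+/- array of day 90 with no named treatment the differences were -2.14 ± 0.22 (adjusted p = 0.00187) and -1.66 ± 0.22 (adjusted p = 0.00367). With median centring they were smaller, at -0.78 for tpa and -0.35 for clp. The tpa and clp arrays differed from each other by -0.48 ± 0.37 (adjusted p = 0.457).

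Junb, a Jun protein that can restrain the activity of Jun, followed Jund across the arrays (Pearson r = 0.93 over 12 arrays that share the pool, as a description). It was at 0.33, 0.86, 0.74 and -0.21 with no named treatment, at 0.12, 0.18, 0.08 and -0.11 with clp and at -0.08, -0.15, 0.02 and -0.3 with tpa, in the order wt and Eng+/- of day 50, then of day 90. The lowest value of each treatment level was on the Eng+/- array of day 90, and the tpa and clp arrays overlapped. The Junb differences were -0.56 ± 0.19 with tpa (adjusted p = 0.126, lower in 4 of 4 pairs) and -0.36 ± 0.19 with clp (adjusted p = 0.256, lower in 3 of 4), and -0.8 ± 0.15 (adjusted p = 0.0114) and -0.6 ± 0.15 (adjusted p = 0.0278) without the Eng+/- array of day 90 with no named treatment. The median Cy3 signal of Junb was low, at 68 to 97.5. For tpa its difference was -1.56 with the processed signals (adjusted p = 0.102). It was -1.05 with median centring (adjusted p = 0.0282) and -1.46 with Cy5 alone (adjusted p = 0.0504). For clp it was -0.84 (adjusted p = 0.208), -0.38 (adjusted p = 0.465) and -1.02 (adjusted p = 0.0384), in the same order. Over the 12 arrays Jun ran opposite to Junb (r = -0.74) and to Jund (r = -0.73).

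Atf3 encodes a stress-induced member of the Atf family that pairs with Jun proteins. It was above the pool on 12 of 12 arrays, at 0.36, 1.05, 1 and 1.14 with no named treatment, at 0.88, 0.97, 0.26 and 0.88 with clp and at 1.06, 1.26, 1.18 and 0.99 with tpa, in the order used for Junb. All 4 tpa values were above all 4 clp values, an arrangement that 7.97% of features showed. The difference of 0.38 ± 0.16 had an adjusted p of 0.176. Against no named treatment the Atf3 differences were 0.24 ± 0.16 for tpa and -0.14 ± 0.16 for clp, both within 2 SEs of 0. The clp difference passed with Cy5 alone (-0.75, adjusted p = 0.0415), but was -0.16 with the processed signals and -0.27 with median centring. Between tpa and clp the difference passed with median centring (0.95, adjusted p = 0.0149), and was 0.76 with Cy5 alone and 0.23 with the processed signals. The median Cy3 signal of Atf3 was low, at 82 to 128, and with the processed signals its ratios were 1.51 to 1.99.

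Egr1 encodes a zinc finger factor that growth signals induce through serum response factor. With no named treatment, Egr1 was at 0.33 (wt, day 50), 0.26 (Eng+/-, day 50), 0.52 (wt, day 90) and 0.52 (Eng+/-, day 90). With clp it was at 1.92 (wt, day 50), 1.62 (Eng+/-, day 50), 2.3 (wt, day 90) and 0.88 (Eng+/-, day 90). With tpa it was at 0.39 (wt, day 50), -0.11 (Eng+/-, day 50), 1.68 (wt, day 90) and 1.28 (Eng+/-, day 90). All 4 clp arrays were above all 4 arrays with no named treatment, an arrangement that 5.29% of features showed, while the tpa arrays split by day.

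Egr1 rose with clp by 1.27 ± 0.23 (adjusted p = 0.0213), in 4 of 4 pairs. The call held with the processed signals (1.24), with median centring (1.79) and with Cy5 alone (1), and without the Eng+/- array of day 90 with no named treatment (1.41 ± 0.24, adjusted p = 0.00788). It was lost without the wt clp array of day 90 (0.98, adjusted p = 0.061), without the Eng+/- clp array of day 50 (1.23, adjusted p = 0.066) and without the wt clp array of day 50 (1.31, adjusted p = 0.0818). It was also lost in a paired model, with each combination of genotype and day as a block (1.27 ± 0.33, adjusted p = 0.0727). Against clp, Egr1 in tpa differed by -0.87 ± 0.23 (adjusted p = 0.0504, lower in 3 of 4 pairs). With tpa against no named treatment the Egr1 difference was 0.4 ± 0.23 (adjusted p = 0.284).

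Other genes moved on the same clp arrays, and 7.77% of all features passed for clp against no named treatment. Among markers of hair shaft and inner root sheath, 14 of 14 had positive differences for clp and 3 passed (Dsg4, Krt82 and Lef1). The mean ratio of the list was -0.99 to 0.95 on the clp arrays, -5.71 to 0.26 with no named treatment and -5.13 to 0.05 with tpa. The value of -5.71 was that of the Eng+/- array of day 90, and the other arrays with no named treatment were at -1.32 to 0.26. Without that array the median clp difference of the list went from 2.04 to 0.52. Of the fibroblast markers 4 of 9 (Col5a1, Fbn1, Lum and Thy1) were lower with clp, with a list mean of -1.07 to -0.33 against 0.07 to 0.48. Of the macrophage and neutrophil markers 3 of 8 (Adgre1, Csf1r and Mrc1) were lower, with a list mean of -1.24 to -0.67 against -0.26 to 0.21. Their part in the Egr1 difference was not tested.

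Egr2, a relative of Egr1 that is needed for Schwann cell myelination, was at 1.24, 1.16, 0.95 and 0.36 with no named treatment, at 0.23, -0.02, 0.86 and 0.58 with clp and at 0.35, 0.21, 0.69 and 0.53 with tpa, in the order used for Junb. The 3 highest values all had no named treatment, and the Eng+/- array of day 90 fell within the range of the treated arrays. The differences were -0.52 ± 0.15 for clp (adjusted p = 0.0614) and -0.48 ± 0.15 for tpa (adjusted p = 0.103), each lower in 3 of 4 pairs. Without that array they were -0.62 ± 0.13 (adjusted p = 0.0164) and -0.58 ± 0.13 (adjusted p = 0.0201). With median centring they were 0.14 and 0.23, both below the shift that this setting gave all features (0.24 for clp and 0.34 for tpa).

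Under median centring without a loess curve, the share of higher genes among the calls went from 21.2% to 83.6% for tpa and from 54.9% to 88.6% for clp. Relative to the shifts of 0.34 for tpa and 0.24 for clp, the differences of Fos (1.45 for tpa), Jun (1.71 for tpa and 1.96 for clp) and Egr1 (1.79 for clp) were still positive.

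None of the 10 genes passed between day 90 and day 50 within a treatment level, and 0% of all features did (0 called by limma in tpa, clp and no named treatment, with 1445, 3165 and 1377 features at an unadjusted p under 0.05). In tpa, Egr1 was higher at day 90 in 2 of 2 pairs, by 1.39 (Eng+/-) and 1.29 (wt), an estimate of 1.34 ± 0.32 (adjusted p = 0.499). In the same comparison 14 of 14 hair shaft and inner root sheath markers had positive differences (median 3.96), of which 0 passed with all arrays. Without the Eng+/- array of day 90 with no named treatment, where 55 of all 25084 features passed, 6 of the 14 markers did. Their part in the Egr1 difference was not tested. Fos in tpa was higher at day 90 in both, by 0.32 and 1.27, at 0.79 ± 0.28 (adjusted p = 0.665). These were the pairs with the smallest p among the 10 genes in tpa, and the plot of day differences shows both genotypes as labelled. How closely they matched for Egr1 rests on the labels of the tpa pair of day 50, which Eng does not bear out. In that pair Egr1 was at 0.39 (wt) and -0.11 (Eng+/-), and at day 90 it was at 1.68 (wt) and 1.28 (Eng+/-).

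Egr2 differed with day in opposite directions. It was lower at day 90 in both genotypes with no named treatment (-0.3 and -0.8, estimate -0.55 ± 0.21) and higher in both with clp (0.63 and 0.6, estimate 0.61 ± 0.21) and with tpa (0.34 and 0.33, estimate 0.33 ± 0.21). The test of whether the day difference varied with treatment had an unadjusted p of 0.00777 for Egr2 and 0.0224 for Egr1, the smallest of the 10, and adjusted p of 0.266 and 0.317. No feature passed that test (background 0%, with 3420 features at an unadjusted p under 0.05). With median centring the Egr2 difference with no named treatment was 0.06, below the shift of 0.24 over all features.

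**Figure D4:**
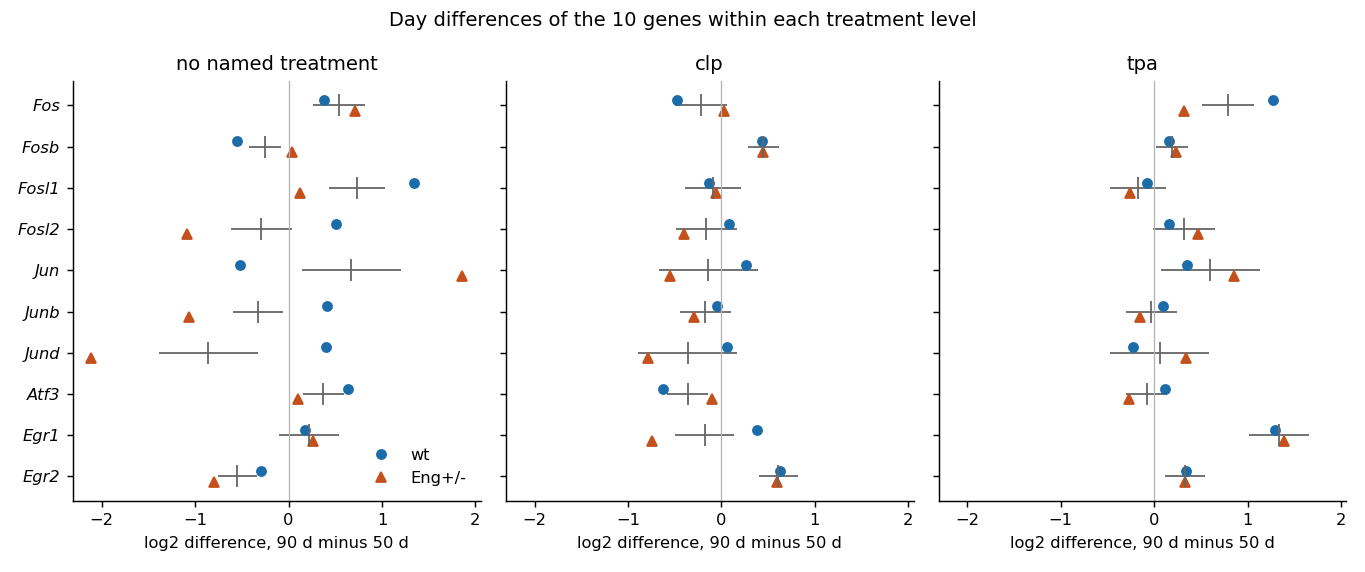
Log2 difference between day 90 and day 50 (horizontal axes) for each of the 10 genes at each treatment level, with wt as circles, Eng+/- as triangles and the limma estimate ± SE as grey lines. In tpa both genotypes, as labelled, put Egr1 above 1, while with no named treatment wt and Eng+/- lie on opposite sides of 0 for Jun, Junb, Jund, Fosl2 and Fosb.

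Jun, Junb, Jund, Fosl2 and Fosb had day differences of opposite sign in the 2 genotypes with no named treatment. Jund differed by 0.4 in wt and by -2.11 in Eng+/-, Jun by -0.52 and 1.86, Junb by 0.41 and -1.07, Fosl2 by 0.51 and -1.09, and Fosb by -0.55 and 0.04. All 5 contrasts use the Eng+/- array of day 90, and each has 1 array a side, so they were not tested. In clp Fosb was higher at day 90 by 0.45 ± 0.17 (adjusted p = 0.352), with 0.44 in wt and 0.45 in Eng+/-.

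Between Eng+/- and wt, 0 of 10 genes passed, where 0% of features did (0 called by limma, 3336 at an unadjusted p under 0.05). In 6 of 6 pairs the Eng+/- label went with the lower Egr2 value, with differences of -0.09 to -0.59, at -0.25 ± 0.12 (adjusted p = 0.398). Egr1 was lower in 5 of 6, at -0.45 ± 0.19 (adjusted p = 0.362), with the widest gap in the clp pair of day 90 (-1.42). Fosb was lower in 5 of 6, at -0.24 ± 0.1 (adjusted p = 0.365), but with the processed signals its difference was 0.03. With the tpa pair of day 50 turned Egr2 was lower in 5 of 6 pairs, and Egr1 and Fosb in 4 of 6 each. For Fos the difference was 0.09 ± 0.16.

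The study's text selected genes at least 2-fold apart between Eng+/- and control cells. Over the 6 pairs, the limma genotype estimates of the 10 genes lay between -0.46 (Jund) and 0.26 (Atf3), so none was 2-fold apart. The single pairs that follow have 1 array a side and were not tested. In the pair of day 90 with no named treatment, Jun was 2-fold higher on the Eng+/- array (1.67), as were 5.49% of features, and Jund (-2.2) and Fosl2 (-1.23) were 2-fold lower, as were 4.35%. In the clp pair of day 90, Egr1 (-1.42) and Jun (-1.03) were 2-fold lower, as were 4.91% of features, and none of the 10 genes was 2-fold higher (2.06%). In the pair of day 50 with no named treatment, Fosl1 was 2-fold higher (1.32), where 0.506% of features were, through the wt array on which its pool signal was high, and none was 2-fold lower (4.05%). In the clp pair of day 50 none of the 10 genes was 2-fold apart (1.3% of features higher and 0.546% lower). The same held in the tpa pair of day 90 (0.183% and 1.3%) and in that of day 50 (0.207% and 0.231%).

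In the model with genotype and day as a block, 0 genes of the 5 lists that follow passed in any of the 3 treatment comparisons (background 0.00797% of features for tpa, 0.124% for clp and 1.39% for tpa against clp). The counts and values that follow are from the model used for the 10 genes.

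Of 27 other immediate early genes measured, 0 were higher and 3 lower with clp: Gem, a small GTPase (-0.93 ± 0.19), Dusp1, a MAP kinase phosphatase (-0.75 ± 0.18), and Klf2, a zinc finger factor (-1.06 ± 0.27). These are 3 of 27, where 7.77% of all features passed, and the median difference was 0.05, beside 0.01 over all features. With the Eng+/- array of day 90 left out, 3 were higher with clp (Csrnp1 at 1.01, Gadd45b at 1.14 and Phlda1 at 1.3) and 5 lower, where 18% of all features passed. For tpa against clp 1 of 27 passed, Klf2, which was higher (1.15 ± 0.27), where 8.16% of all features passed. For tpa against no named treatment 0 of 27 passed (median 0.06, beside 0). When that array was left out, Csrnp1 (0.87 ± 0.19) and Nr4a2, a nuclear receptor (0.66 ± 0.17), were higher with tpa and Ier2 was lower (-0.95 ± 0.13), where 19.8% of all features passed.

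Among 13 dimer partners and co-regulators of these factors, Nab1, a corepressor that binds Egr1, rose with clp (0.96 ± 0.23, adjusted p = 0.041), and Batf3, a Jun partner of immune cells, fell (-0.58 ± 0.13, adjusted p = 0.0346). Batf, Batf2 and Batf3 were each higher with tpa than with clp, by 0.66 ± 0.17, 0.71 ± 0.17 and 0.65 ± 0.13. Of all features, 7.77% passed for clp and 8.16% for tpa against clp. The median difference of the 13 genes was -0.19 for clp (0.01 over all features) and 0 for tpa against clp (-0.05 over all). For tpa against no named treatment 0 of 13 passed. Without the Eng+/- array of day 90, Nab1 (1.36 ± 0.15) and Maf (0.93 ± 0.23) were among those that passed as higher, and Nab2, the other Nab corepressor (-1.12 ± 0.18), and Maff (-0.79 ± 0.13) among those that passed as lower. In that fit 2 of 13 were higher and 3 lower with tpa, where 19.8% of all features passed. The macrophage and neutrophil markers were also higher with tpa than with clp, 5 of 8 of them passing, and their part in the Batf differences was not tested.

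Of 30 genes of protein kinase C, Ras and MAP kinase signalling, Prkcb, a protein kinase C isoform, was lower with clp (-1.42 ± 0.26) and higher with tpa than with clp (1.04 ± 0.26). Spry2, a feedback inhibitor of receptor tyrosine kinases, was lower with tpa than with clp (-1.09 ± 0.28). For clp 1 of 30 passed, where 7.77% of all features did. For tpa against clp 1 of 30 was higher and 1 lower, where 8.16% of all features passed. With tpa against no named treatment 0 of 30 passed, and 7 of the 30 differences were positive (median -0.14, beside 0 over all features). In the fit without the Eng+/- array of day 90, 6 of the 30 were lower with tpa, among them Spry2 (-1.59 ± 0.29), the MAP kinase phosphatase Dusp6 (-1.27 ± 0.19) and Elk1, a partner of serum response factor (-1.21 ± 0.24), where 19.8% of all features passed. With clp 4 of 30 were then lower, where 18% of all features passed.

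Of 31 genes known to respond to phorbol ester or AP-1 in skin, 4 rose and 2 fell with clp, where 7.77% of all features passed. Areg (1.16 ± 0.23) and Hbegf (0.74 ± 0.14) are ligands of the epidermal growth factor receptor, and Mt2 (1.16 ± 0.19) and Mt1 (0.99 ± 0.18) encode metallothioneins. Lor, a cornified envelope protein, fell (-1.07 ± 0.26), as did the chemokine Ccl2 (-0.62 ± 0.16). Leaving out the Eng+/- array of day 90 with no named treatment, 6 were higher and 3 lower with clp, now also S100a8 (1.47 ± 0.43), Ptgs2 (0.44 ± 0.11) and Plau (-0.67 ± 0.14), where 18% of features passed. With tpa against clp, Ccl2 (1.1 ± 0.16), the matrix proteases Mmp9 (0.68 ± 0.12) and Mmp13 (1.21 ± 0.3) and the chemokine Cxcl1 (0.57 ± 0.12) were higher, and Areg (-1.17 ± 0.23) was the 1 that was lower. Of all features 8.16% passed in that comparison.

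With tpa against no named treatment, 0 of the 31 response genes passed, and 20 had positive differences (median 0.24, beside 0). Without the Eng+/- array of day 90 with no named treatment, 5 of 31 were higher with tpa: Ptgs2, a cyclooxygenase (1.02 ± 0.11), Mt1 (1.01 ± 0.15), Mt2 (0.92 ± 0.2), Cxcl1 (0.66 ± 0.13) and Il1b (0.92 ± 0.23). Plau, a plasminogen activator (-0.94 ± 0.14), and Lor (-0.99 ± 0.22) were lower, where 19.8% of all features passed. Heat shock genes, which cell stress raises, had 0 of 9 passing in any of the 3 treatment comparisons, with medians of -0.08 (tpa), 0.09 (clp) and -0.2 (tpa against clp). In the fit without that array 3 of 9 passed for tpa, Bag3 higher (0.85 ± 0.22) and Hsp90aa1 (-0.89 ± 0.26) and Hspb1 (-0.62 ± 0.19) lower, and 0 of 9 for clp (18% of all features).

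The features most like each gene over the 12 arrays were found by Pearson correlation of log2 ratios, as a description over arrays that share the pool, the slides and the treatments. Fos was most like Gckr (0.936), Lrrc55 (0.924) and Rem2 (0.901), and Egr1 was most like H2ax (0.963), Gli3 (0.953) and Ammecr1 (0.95). Jun was most like Foxo1 (0.984), and Jund was most like Pcnx3 (0.991). Within the 45 pairs of the 10 genes, the closest were Junb with Jund (0.93), and then Jun with Egr1 and Fosl2 with Junb (0.76 each), while Fos and Jun had 0.41 and Fos and Egr1 0.2.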

How the data were processed

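The deposited scanner files hold median foreground and background intensity values of both channels, per the file headers from an Agilent scanner and Feature Extraction 10.7.3.1 (probe annotation mm9). The submitters' processing notes name Feature Extraction 10.0, and the series text another scanner, wt in Cy3 and dye swaps, which the array labels do not show. The authors' processed intensity values are background-subtracted and dye-normalized, and the deposited log10 ratio of these equalled the value table on each of 44397 spots. Deposited flags (other values) mark saturated, outlying and above-background spots.

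From the median signals, log2 ratios of Cy5 to Cy3 were computed in R 4.3.3 with limma 3.58.1 (normexp, offset 50, loess within arrays with control spots at weight 0) and version 1.17.8 of the data.table package. Outlier spots were removed, spots of a probe averaged, and probes kept where 2 or more of 12 arrays had Cy5 well above background (30497 probes). Each gene was represented by its brightest probe (mean intensity of both channels). The model of genotype and 6 treatment-by-day conditions had 5 residual and 4.16 prior degrees of freedom (eBayes with trend, two-sided, Benjamini-Hochberg over 25084 features), and lone arrays are assumed to vary alike. The number of arrays limits the precision. Alternatives were other scalings, no filter, the mean of a gene's probes, genotype and day as a block, and leaving out arrays. The 10 genes were named whatever their values, and other lists by at most 3 genes a direction with the smallest p. Areg, Mmp13, the marker genes and the genes that passed only without 1 array were named after their values were seen. The members and lists were chosen with earlier results of these data known.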

Additional observations from a re-analysis of the deposited data

How the results depend on the processing

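The labels give no replicate numbers. A model with each combination of genotype and day as a block, which pairs the arrays of the treatment levels, was chosen after seeing the data. It called 0 of the 10 genes in each treatment comparison, and 2 (tpa), 31 (clp) and 349 (tpa against clp) features. Egr1 with clp kept its direction in all 19 alternative fits and its call in 15 of them. The cause of the changes below was not tested, beyond fewer arrays in the fits that leave some out.

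Without single arrays, 0 to 6 of the 10 genes were called for tpa against no named treatment, 0 to 5 for clp and 0 to 2 for tpa against clp. For day, leaving out 1 array can leave 1 array a side, so calls of the 10 genes are not given. Without the Eng+/- array of day 50, the Fosl1 day difference with no named treatment was 1.39. Day 50 then rests on the wt array on which the Fosl1 pool signal was high. The features called ranged from 0 to 4966 (tpa), 3 to 4506 (clp), 203 to 2969 (tpa against clp), 0 to 55 (day in tpa), 0 to 57 (day in clp), 0 to 271 (day with no named treatment) and 0 to 216 (day by treatment). The 3 highest treatment counts came without the Eng+/- array of day 90 with no named treatment, and the lowest without the wt tpa array of day 50 (tpa, also against clp) and the wt clp array of day 50 (clp). Differences that changed sign were near 0: Fos (-0.06 to 0.24), Fosb (-0.08 to 0.12) and Fosl2 (-0.14 to 0.35) with clp, Fosb with tpa (-0.05 to 0.14), and Fosb (-0.02 to 0.06) and Fosl1 (-0.07 to 0.16) for tpa against clp.

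With median centring, 2 of the 10 genes were called in each of the 3 treatment comparisons. They were Fos and Junb for tpa, Egr1 and Jun for clp, and Fos and Atf3 for tpa against clp. The features called were 1037 for tpa, 1594 for clp and 1629 for tpa against clp. They were 245 for day in tpa, 222 for genotype and 313 for day by treatment. Egr2 turned to 0.23 (tpa), 0.14 (clp) and 0.06 (day with no named treatment), Fosl2 to 0.26 (tpa), and Fosl1 to -0.03 (tpa) and -0.36 (tpa against clp). The Egr2 and Fosl2 values lie below the shifts of all features under this setting (0.34 for tpa, 0.24 for clp and 0.24 for day with no named treatment). The processed signals gave other counts: 0 features were called for tpa and 4098 for clp, with 4 of the 10 genes for clp, and Fosl2 (-0.04, clp), Fosl1 (-0.19, tpa against clp) and Fosb (0.03, genotype) turned. With Cy5 alone, 431 features were called for tpa, 6189 for clp and 2354 for tpa against clp, with 5 of the 10 genes for clp and 1 for tpa against clp. Fosl1 then turned to -0.33 (tpa), -0.21 (clp), -0.13 (tpa against clp) and -0.41 (day with no named treatment), and Fosb to 0.25 (genotype).

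Leaving out the Eng+/- array of day 90 and the wt array of day 50 with no named treatment together was chosen after seeing the data. It called 6 (tpa), 5 (clp) and 3 (tpa against clp) of the 10 genes, and 5138, 5135 and 3579 features, with 71 for day in tpa, 10 for day with no named treatment and 23 for day by treatment. Fosl2 was then at -0.29 (clp) and Fosl1 at -0.01 (day with no named treatment).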

Other observations

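The genes whose ratios ran closest to the other members over the 12 arrays are given as a description, since all arrays share the pool. Fosl2 was most like Cobll1 (Pearson r = 0.977) and E2f3 (0.972), and Junb was most like Trim33 (0.975) and Dph3 (0.973). Atf3 was most like 4930486L24Rik (0.963) and Ddhd2 (0.96), and Egr2 was most like Nkx2-5 (0.913) and Sidt2 (0.912). Fosb had the lowest closest value of the 10 genes, at 0.874 with Vmn1r192.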
